A study of Mus musculus with 4 samples.

Results

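The genes described here encode the oxidative phosphorylation machinery of the mouse: the subunits of respiratory complexes I to IV, the ATP synthase (complex V) and cytochrome c, with a few assembly factors that share their names. Members were chosen by symbol: names beginning with mt-Nd, mt-Co, mt-Atp, mt-Cytb, Ndufa, Ndufb, Ndufs, Ndufv, Ndufc, Uqcr, Cox4 to Cox8 or Atp5, and Sdha, Sdhb, Sdhc, Sdhd, Cycs, Cyct and Cyc1, without symbols ending in -ps or a numbered -ps. This gave 114 genes of 44509 named symbols. They were 87 nuclear subunits, the 13 protein genes of the mitochondrial genome, 10 assembly factors or regulators and 4 further gene copies in the nucleus. In a busulfan model of oligozoospermia, a shortage of sperm, RNA was sequenced from 100 mg of mouse testis tissue. Busulfan is an alkylating drug that depletes dividing germ cells. Of the 4 libraries, 2 came from the busulfan model alone (busulfan 1 and 2) and 2 from the model given Cus-1, a resin glycoside from a cuscutae extract (Cus-1 1 and 2), so every library carries busulfan and none is an untreated testis. The labels give no strain, age, dose or time, and they do not say whether the libraries of a group came from separate animals, so p-values measure only the spread between these libraries, which may be technical. Titles of the busulfan libraries begin with BPA and those of the treated ones with CUS2, while the groups used here rest on the source label alone.

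Oxidative phosphorylation passes electrons from NADH (complex I) and succinate (complex II) through ubiquinone, complex III and cytochrome c to oxygen at complex IV, and the proton gradient made on the way drives ATP synthase. The mitochondrial genome encodes core subunits of complexes I, III, IV and V, while complex II, cytochrome c and all other subunits come from the nucleus, so most complexes are built from 2 genomes. In the testis, meiotic and postmeiotic germ cells express their own forms of several subunits, among them the testis cytochrome c (Cyct) and testis forms of complex IV subunits (Cox6b2, Cox7b2 and Cox8c), which stand in for common forms used by other cells. Sertoli and Leydig cells are the main somatic cells of the tissue.

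The deposited table gives FPKM, a fragment count scaled to gene length in kilobases and to the M of mapped fragments. From the smallest steps of the values, each library was estimated to hold 12.2 to 13.7 M fragments. Cus-1 1 stood apart from the other libraries: 7092 named genes were listed at 0 in it, against 9226 to 10329 in the others, and elongating spermatid markers summed to 13453 FPKM in it, against 3656 to 5153. Testis markers were present throughout: none of the 36 markers of meiotic and postmeiotic germ cells, 12 Sertoli markers and 10 Leydig markers was listed at 0 in any library. Differences below are mean log2(FPKM + 1) with Cus-1 minus that with busulfan alone, a scale that understates differences of genes with low values, and SE is the standard error from limma, a linear model fitted over the 19837 genes that reached 1 FPKM in 2 or more libraries.

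Of the 114 genes, 112 were tested, and 0 passed a Benjamini-Hochberg adjusted p of 0.05 in limma. The background was the same, with 0% of all tested genes called (0 of 19837), and the lowest adjusted p among the members was 0.152. At an unadjusted p under 0.05, 8 members were higher and 4 lower with Cus-1, where 18.0% of all tested genes were higher and 9.96% lower. The 8 were Cox8c, Cox6b2, Cox7b2, Cyct, Ndufaf3, Ndufb11b, Ndufc1 and Ndufaf7, and the 4 were mt-Co2, Cox4i2, Atp5mc2 and Ndufa10. Groups that did not overlap, meaning that both Cus-1 libraries lay above or both below both busulfan libraries, were common in this table: 36.6% of all tested genes were higher in that sense and 31.7% lower, or 68.4% in either direction. Among the members, 20 (17.9%) were higher, 33 (29.5%) lower and 59 overlapped. The share of members that overlapped thus exceeded that of all genes, and the results below describe values rather than calls.

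**Figure D1:**
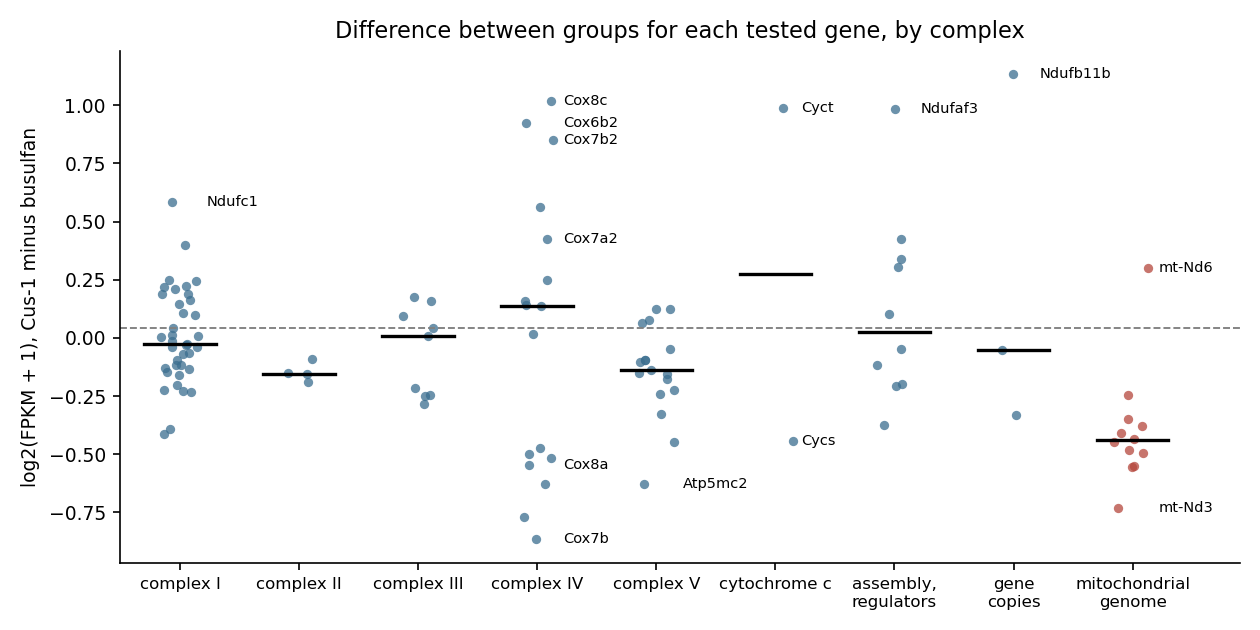
Each point is a tested gene, placed by complex on the x axis and by its difference in mean log2(FPKM + 1), Cus-1 minus busulfan, on the y axis; nuclear genes are blue, mitochondrial genes red, black bars are medians and the dashed line is the median of all tested genes (0.04). Complex I lies around its median of -0.03, complex IV holds genes near 1 and genes below -0.4, and 11 of the 12 mitochondrial genes drawn lie below 0; mt-Co2, listed at 0 with Cus-1, is left out.

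Transcripts of the mitochondrial genome were lower with Cus-1 in most cases. Of its 13 protein genes, 10 (76.9%, against 31.7% of all tested genes) were lower without overlap of the groups, 0 were higher and 3 overlapped (mt-Co3, mt-Atp8 and mt-Nd6). Without mt-Co2, whose values are uncertain, 9 of 12 (75%) were lower in this sense. Genes of the same small genome need not vary independently, so these counts are not separate results. The median difference was -0.45, and -0.44 without mt-Co2, against 0.04 over all tested genes. Leaving out Cus-1 1 gave -0.25 and leaving out Cus-1 2 gave -0.64. Under quantile normalization, which moved the median of all genes by -0.10, the mitochondrial median was -0.30. Then 6 genes were lower without overlap, a count for which the share of all genes under this scaling is not given. In it mt-Nd4 (0.02) and mt-Atp8 (0.00) were no longer lower. This scaling gives equal values to equal ranks. It can therefore remove differences of the most abundant rows, such as mt-Atp8 and mt-Co1 (-0.02), whatever their FPKM.

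Together these 13 genes held 8.42% (busulfan 1), 8.45% (busulfan 2), 5.77% (Cus-1 1) and 7.43% (Cus-1 2) of the summed FPKM. The Cus-1 libraries were thus both lower, but they differed from each other by nearly as much as from busulfan. The mean difference was -1.83 percentage points, with an exact two-sided permutation p of 0.333, the smallest that 2 libraries against 2 can give. This difference was -1.002 points with Cus-1 1 left out and -2.66 points with Cus-1 2 left out. Nuclear subunits held 2.25% and 2.56% in the busulfan libraries, 2.24% and 2.55% in the others, so their share was the same within the spread of the libraries. The ratio of mitochondrial to nuclear summed FPKM was therefore 3.74 and 3.30 in the busulfan libraries, above the 2.57 and 2.91 of the others. The share and the ratio rest largely on 2 rows. The largest, mt-Atp8, is a short gene whose groups overlapped. It held 24648 and 27945 of 61130 and 62739 FPKM with busulfan, and 19432 and 25223 of 41982 and 54932 with Cus-1. The next was mt-Co1, at 14883 and 14136 against 9308 and 12171. In bulk tissue, fewer cells of a type and less RNA per cell cannot be told apart, here or in any result below.

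**Figure D2:**
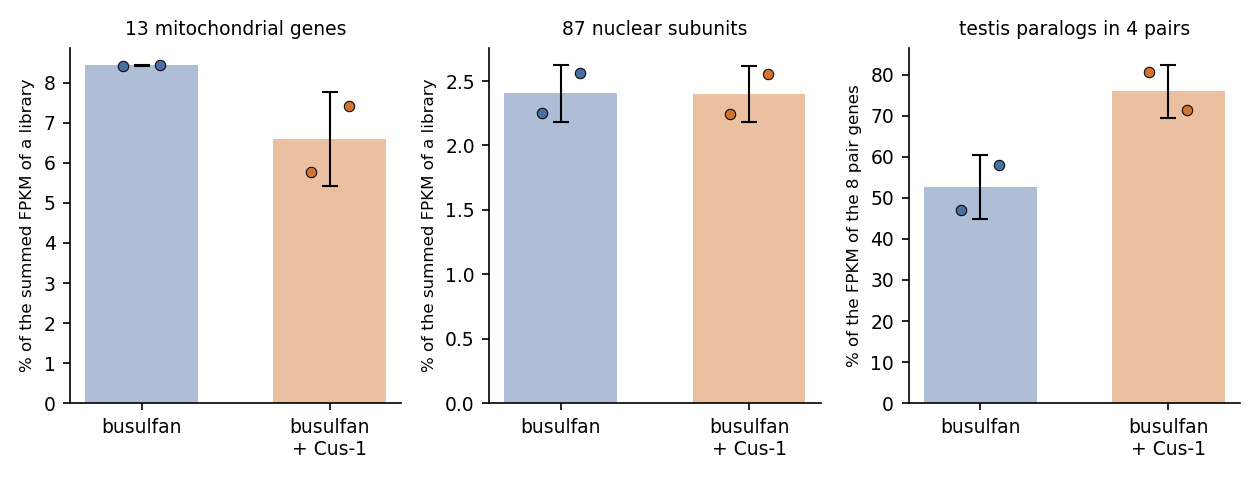
Bars are group means over 2 libraries, error bars the SD and points the libraries; the left and middle panels give percent of the summed FPKM of a library, the right panel the percent that the testis forms hold of the FPKM of the 8 genes in 4 subunit pairs. The mitochondrial share is lower in both Cus-1 libraries (5.77% and 7.43%), the nuclear share overlaps, and the testis forms are higher (80.5% and 71.3% against 47.0% and 58.1%).

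By role, the 7 complex I genes of the mitochondrial genome encode the membrane core that pumps protons. mt-Nd1 was at 5464 and 5007 FPKM in the busulfan libraries and 3329 and 4219 in the Cus-1 ones (difference -0.48, SE 0.30, limma adjusted p = 0.307). mt-Nd2 was at 1914 and 1819 FPKM against 1193 and 1359 (-0.55, SE 0.21). Both genes were lowest in Cus-1 1. The other complex I genes of the same strand gave -0.73 (SE 0.33) for mt-Nd3, -0.56 (SE 0.30) for mt-Nd4l, -0.41 (SE 0.25) for mt-Nd4 and -0.35 (SE 0.21) for mt-Nd5, each without overlap of the groups.

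mt-Nd6 differed in sign from the rest, and it is also the member whose coding strand is the other one: positions 13552 to 14070 of the mitochondrial genome on the minus strand, where the other 12 lie on the plus strand. It was at 137 and 175 FPKM in the busulfan libraries and 165 and 221 in the Cus-1 ones (difference 0.30, SE 0.22, limma adjusted p = 0.379). The groups overlapped, with busulfan 2 above Cus-1 1. It stayed positive under all 3 other scalings tried (0.16 to 0.27). Whether the counting used strand is not given in the sources used here, and without it the reads of opposite strands cannot be told apart.

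Cytochrome b, the mitochondrial subunit of complex III (mt-Cytb), was at 3984 and 4012 FPKM in the busulfan libraries and 2815 and 3360 in the Cus-1 ones (difference -0.38, SE 0.27). Of the complex IV core, mt-Co1, the subunit that holds the oxygen-binding site, was at 14883 and 14136 FPKM against 9308 and 12171 (-0.45, SE 0.40). mt-Co3 was at 575 and 585 FPKM in the busulfan libraries and 308 and 597 in the Cus-1 ones, so the groups overlapped, and its difference of -0.44 was 0.04 without Cus-1 1. The ATP synthase genes overlap each other on the genome. mt-Atp6 was at 2058 and 1961 FPKM against 1122 and 1815 (-0.49, SE 0.30), and the short mt-Atp8 at 24648 and 27945 against 19432 and 25223 (-0.25, SE 0.49).

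mt-Co2, which carries the site where complex IV takes electrons from cytochrome c, has uncertain values. It was at 38.66 and 88.88 FPKM with busulfan and listed at 0 in both Cus-1 libraries, so no fold is given. The annotation of the same build (GENCODE M21) holds a nuclear copy of this stretch of mitochondrial DNA on chromosome 1, minus strand, from 24611535 to 24616197, and transcripts of its unprocessed pseudogenes matched the mitochondrial genes almost base for base. Gm28661 (24614885 to 24615565) was identical to mt-Co2 over all 681 of its bases and stood at 14573 and 14187 FPKM in the busulfan libraries and 9637 and 12720 in the Cus-1 ones. These values lie at the level of mt-Co1, not of the row named mt-Co2. A copy on chromosome 2, Gm13341 (22587291 to 22587962), matched mt-Co2 at 95.9% of 684 aligned bases and stood at 0.75 FPKM or less in every library. A stretch of each is printed to show where reads could tell them apart. It was picked because Gm13341 differs within it, at 6 of 60 bases, more often than over the whole alignment. Capitals mark the positions at which Gm13341 differs, and Gm28661 has no letter of its own there. Sequences are from GENCODE M21 transcripts, 5′ to 3′, bases 452 to 511 of mt-Co2 and of Gm28661 and bases 440 to 499 of Gm13341.
mt-Co2: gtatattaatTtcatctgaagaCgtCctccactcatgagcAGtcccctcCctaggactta
Gm28661: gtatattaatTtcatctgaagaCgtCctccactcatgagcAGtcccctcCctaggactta
Gm13341: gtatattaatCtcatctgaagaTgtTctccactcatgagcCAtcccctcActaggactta

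Other genes of the same block were divided in the same way. Gm28437, identical to mt-Co3 over 783 bases, was at 12458 and 12090 FPKM in the busulfan libraries and 7990 and 10068 in the Cus-1 ones, and it held 95.4% of the FPKM of the pair. Gm10222, identical to mt-Nd4l over 294 bases, held 76.6%, and Gm28438, identical to mt-Nd3 at 344 of 345 bases, held 61.8%. Identical stretches cannot place a read on either member of such a pair, so the values of mt-Co2, mt-Co3, mt-Nd3 and mt-Nd4l are uncertain one by one. The block also holds Gm10925, identical to mt-Atp6 over 678 bases, and Gm28439, identical to mt-Nd4 over 876 bases. No values were found under these names, and those of mt-Atp6 and mt-Nd4 are uncertain for the same reason.

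With the FPKM of copies of about equal length added to their gene, a step chosen after the data were seen, the mitochondrial genes became more alike. mt-Co2 with its copies was at 14612 and 14277 FPKM in the busulfan libraries and 9637 and 12720 in the Cus-1 ones (difference -0.38, SE 0.40, limma adjusted p = 0.521). The differences were then -0.45 for mt-Co3, -0.48 for mt-Nd3 and -0.42 for mt-Nd4l, and all 12 genes of the plus strand lay between -0.55 and -0.25. Before summing, the 11 of these other than mt-Co2 ran from -0.73 to -0.25. The mitochondrial share with the copies was 13.1% and 12.9% with busulfan and 8.91% and 11.3% with Cus-1. Groups no longer overlapped for mt-Co3, and 11 of 13 genes were then lower in this sense.

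**Figure D3:**
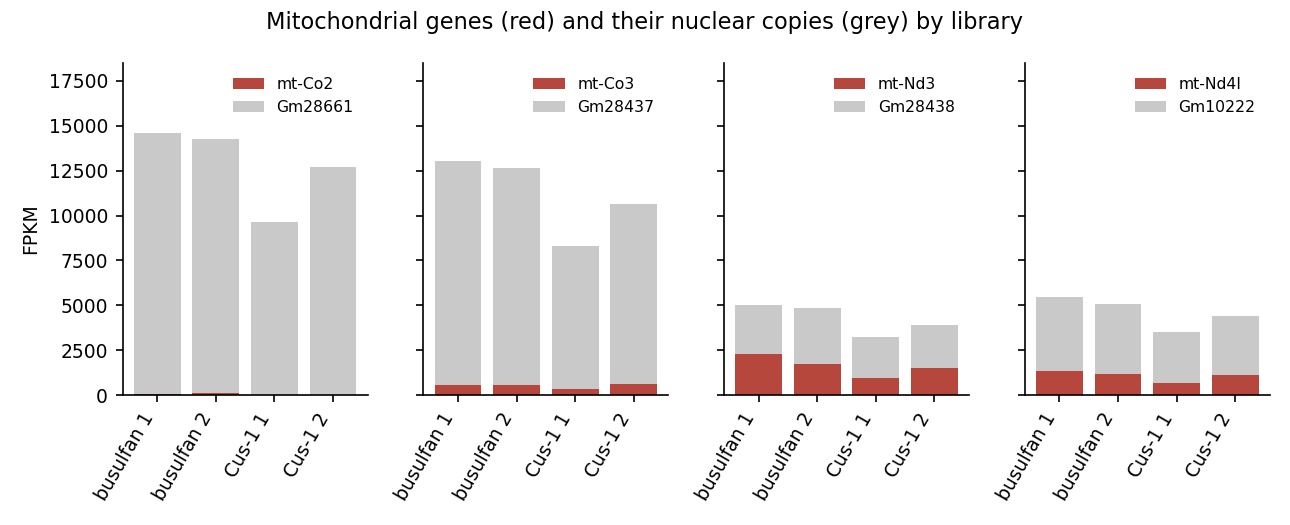
Stacked bars give FPKM per library for 4 mitochondrial genes (red) and their near-identical nuclear copies on chromosome 1 (grey). Most of the FPKM of mt-Co2, mt-Co3 and mt-Nd4l stands on the row of the copy, and the stacked totals are lower in both Cus-1 libraries, as for mt-Co2 with its copies at 14612 and 14277 against 9637 and 12720.

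The 87 nuclear subunits showed no common direction. Of the 86 tested, 16 (18.6%) were higher in both Cus-1 libraries, 20 (23.3%) lower and 50 overlapped. Counts of this kind, here and below, stand beside 36.6% of all tested genes higher and 31.7% lower. The median of the 86 was -0.06, with a range from -0.87 to 1.02. The sign of this median rested on single libraries, being 0.06 without busulfan 2 and 0.03 without Cus-1 1 but -0.14 without busulfan 1 and -0.12 without Cus-1 2. Against the mitochondrial median, the nuclear one was 0.39 higher, and 0.28 to 0.54 higher with any 1 library left out. It was 0.13 higher under quantile normalization, which can shrink differences of the abundant mitochondrial rows. Counts without overlap are not compared with a library left out, because a group of 1 library falls outside the range of the other more easily. Quantile normalization with every library kept gave 10 higher and 40 lower. It lowered the median of all tested genes too. Their shares without overlap under this scaling are not given, so these counts have no background to stand beside.

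Complex I, the NADH dehydrogenase, had 37 nuclear subunits tested, with a median difference of -0.03; 6 were higher in both Cus-1 libraries, 5 lower and 26 overlapped. Leaving out busulfan 2 gave 0.10 and leaving out Cus-1 1 gave 0.07, against -0.12 for busulfan 1 and -0.09 for Cus-1 2. The electron input arm, which holds the flavin and iron-sulfur centres (Ndufv and Ndufs genes), was at -0.04 over 11 genes, Ndufa genes at -0.04 over 13, and Ndufb and Ndufc genes at 0.04 over 13. Ndufb8, one of its 3 most abundant nuclear subunits, was at 269 and 364 FPKM in the busulfan libraries and 282 and 352 in the Cus-1 ones, so the libraries of each group differed more than the groups (difference 0.01, SE 0.23). Ndufa12, an accessory subunit of the peripheral arm, was at 251 and 315 FPKM against 337 and 314 (0.21, SE 0.18). Ndufc1, a small membrane subunit named after its values were seen, was at 157 and 209 FPKM against 295 and 251, both Cus-1 libraries being higher (0.59, SE 0.21, limma adjusted p = 0.166; 0.38 without busulfan 1).

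Complex II, succinate dehydrogenase, has no mitochondrially encoded subunit, and all 4 of its genes had a small negative difference, with a median of -0.15 that was 0.0034 without Cus-1 1. Sdha, the flavoprotein, was at 125 and 122 FPKM in the busulfan libraries and 104 and 119 in the Cus-1 ones, without overlap (-0.15, SE 0.15). Sdhb, the iron-sulfur subunit, was at 130 and 147 against 112 and 137, and Sdhd, a membrane anchor, at 90.5 and 93.0 against 68.8 and 93.8; both overlapped. In complex III the median over 9 nuclear genes was 0.01 and 6 overlapped; this median was negative under the 3 other scalings (-0.02 to -0.09) and ran from -0.10 without busulfan 1 to 0.12 without busulfan 2, with 0.11 without Cus-1 1 and -0.10 without Cus-1 2. Uqcr10 was at 588 and 699 FPKM against 417 and 695 (-0.25, SE 0.30), with 0.12 without Cus-1 1. Uqcrq was at 288 and 344 against 307 and 343 (0.04, SE 0.18), and Uqcr11 at 300 and 342 against 240 and 289, lower in both Cus-1 libraries (-0.28, SE 0.18).

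Complex V had a median of -0.14 over 17 nuclear genes; 1 was higher in both Cus-1 libraries, 6 were lower and 10 overlapped. Leaving out Cus-1 1 gave -0.05 and leaving out busulfan 2 gave -0.07, against -0.24 for each of the others. Its membrane part (Atp5m genes) was at -0.19 over 8 and the catalytic head with the peripheral stalk (Atp5f1 and Atp5p genes) at -0.09 over 9. Atp5f1b, the catalytic beta subunit, was at 776 and 788 FPKM in the busulfan libraries and 689 and 732 in the Cus-1 ones, without overlap but close (-0.14, SE 0.18). Atp5pd, of the peripheral stalk, was at 426 and 443 against 338 and 400 (-0.24, SE 0.17). Atp5mc3, one of the genes for subunit c, whose ring turns with the flow of protons, was at 475 and 544 against 380 and 498 (-0.22, SE 0.21), and the groups overlapped.

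Complex IV, cytochrome c oxidase, was the only one of complexes I to V whose nuclear genes mostly did not overlap: 6 of 17 were higher in both Cus-1 libraries, 6 lower and 5 overlapped, around a median of 0.14. That share without overlap is near the 68.4% of all tested genes. The median came to 0.0003 when busulfan 1 was left out, 0.04 for Cus-1 2 and 0.24 for busulfan 2, and to 0.0048 under quantile normalization. Among its abundant subunits, Cox6a1 was at 988 and 1213 FPKM in the busulfan libraries and 609 and 1020 in the Cus-1 ones (-0.47, SE 0.31; -0.10 without Cus-1 1). Cox6c was at 623 and 619 against 637 and 856 (0.25, SE 0.22), and Cox4i1 at 496 and 597 against 565 and 652 (0.16, SE 0.20). The highest and the lowest differences belonged to genes that come in pairs, in which a tissue form and a common form encode the same subunit. Without the genes of 8 such pairs, 71 nuclear subunits had a median of -0.05, with 10 higher, 13 lower and 48 overlapping.

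In 4 of these pairs, 1 form is that of male germ cells, and in each the testis form was higher with Cus-1 and the common form lower, without overlap. Testis cytochrome c, Cyct (chromosome 2, 76353942 to 76360450), was at 51.7 and 95.5 FPKM in the busulfan libraries and 146 and 135 in the Cus-1 ones (0.99, SE 0.31, limma adjusted p = 0.154). Somatic cytochrome c, Cycs (chromosome 6, 50562563 to 50566538), was at 28.7 and 20.8 FPKM against 16.7 and 18.8 (-0.44, SE 0.21). The log2 ratio of Cyct to Cycs was thus 0.83 and 2.15 with busulfan and 3.06 and 2.78 with Cus-1, a difference of 1.43 that ran from 0.77 without busulfan 1 to 2.09 without busulfan 2. In this pair busulfan 2 lay closer to the Cus-1 libraries than to busulfan 1.

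Cox6b2 (chromosome 7, 4751792 to 4753094), the testis form of a subunit on the intermembrane side, was at 190 and 274 FPKM in the busulfan libraries and 460 and 411 in the Cus-1 ones (0.93, SE 0.23, limma adjusted p = 0.152). Its common form Cox6b1 (chromosome 7, 30616861 to 30626151) was at 274 and 260 against 154 and 225 (-0.52, SE 0.23). The common form led in busulfan 1, the 2 forms were close in busulfan 2, and the testis form led in both Cus-1 libraries, the log2 ratio being -0.52 and 0.08 against 1.57 and 0.86.

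Cox7b2 (chromosome 5, 71442824 to 71548205) was at 140 and 222 FPKM against 325 and 315 (0.85, SE 0.25), and its X-linked common form Cox7b (chromosome X, 106015700 to 106022450) at 109 and 114 against 39.1 and 94.1 (-0.87, SE 0.42). The value of Cox7b rested on Cus-1 1, being -0.24 without that library and -1.49 without Cus-1 2. Cox8c (chromosome 12, 102899316 to 102900526), the testis form of a small membrane subunit, was at 248 and 378 FPKM in the busulfan libraries and 644 and 601 in the Cus-1 ones (1.02, SE 0.25), the highest difference of any nuclear subunit tested. Its common form Cox8a (chromosome 19, 7215153 to 7217616) was at 298 and 306 against 171 and 249 (-0.55, SE 0.22). The ratio of testis to common form differed between groups by 1.44 on the log2 scale for Cox6b, 1.72 for Cox7b and 1.57 for Cox8, and each was positive without any 1 of the libraries, from 1.07 upward. Ratios within a library do not depend on its scaling factor, but they show unequal values, not which form differs.

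**Figure D4:**
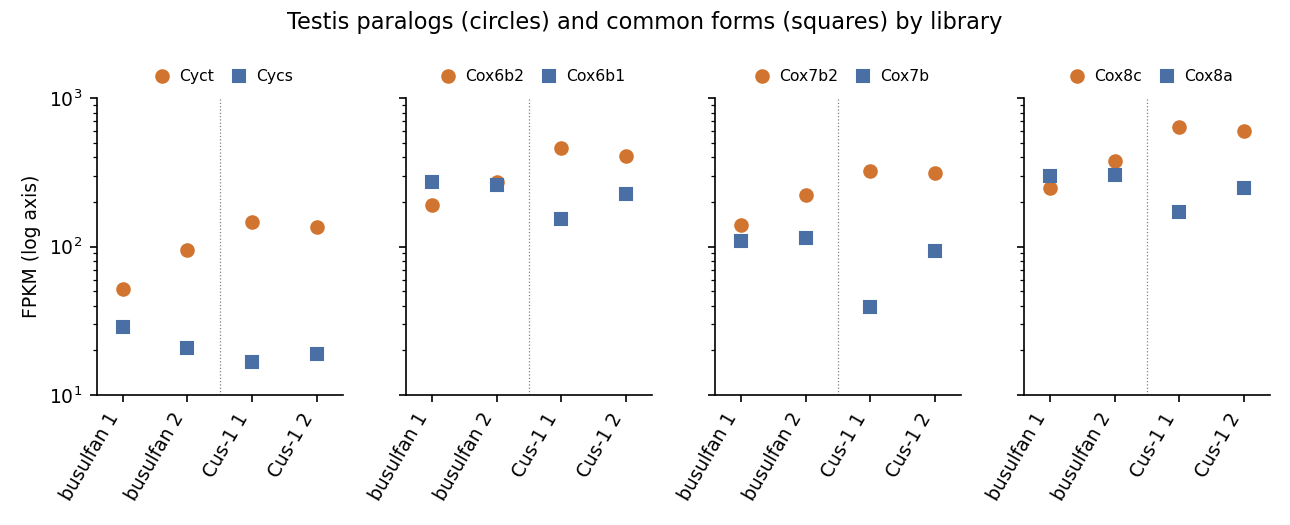
FPKM on a log axis per library for 4 testis forms (orange circles) and their common forms (blue squares), with a dotted line between the busulfan and the Cus-1 libraries. Circles are higher and squares lower in both Cus-1 libraries in every panel, as for Cox8c (248 and 378 against 644 and 601) and Cox8a (298 and 306 against 171 and 249).

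Of the summed FPKM of these 8 genes, the testis forms held 47.0% and 58.1% with busulfan and 80.5% and 71.3% with Cus-1. Germ cell markers moved with them. All 12 spermatocyte markers were higher in both Cus-1 libraries (median 0.96; summed 1682 and 2496 FPKM in the busulfan libraries against 4178 and 3550), as were all 12 round spermatid markers (median 1.11; 373 and 542 against 1151 and 779) and all 12 elongating spermatid markers (median 1.19; 3656 and 3933 against 13453 and 5153). Leaving out Cus-1 1 or Cus-1 2 put the elongating spermatid median at 0.49 or 1.93, and leaving out busulfan 1 or busulfan 2 put the spermatocyte median at 0.60 or 1.36. All 12 Sertoli cell markers were lower in both Cus-1 libraries (median -0.75; 6052 and 4412 against 2871 and 3477 FPKM), and the part of germ cells and Sertoli cells in the values of the pairs was not tested.

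None of the 4 testis forms matched its common form at 95% identity over 150 bases and 80% of the transcript in a search of GENCODE M21. Cycs does have near-identical copies elsewhere: Gm10053 on chromosome 19 (24875686 to 24876631), identical at 945 of 946 bases, was at 185 and 174 FPKM in the busulfan libraries and 111 and 136 in the Cus-1 ones. Gm10108 on chromosome 5 (13121448 to 13121766), identical at 317 of 319 bases, was at 92.7 and 84.3 against 11.4 and 54.4. Both rows were lower with Cus-1 without overlap, like Cycs itself, and stood above it in level in all libraries but 1, Gm10108 in Cus-1 1. Their lengths differ from that of Cycs, so they were not added, and the level of somatic cytochrome c is uncertain.

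The promoters of these pairs were compared because testis and common forms gave opposite signs. Windows ran from 250 bases before to 50 after the start of a gene (RefSeq, GRCm38.p6). Capitals mark the motifs searched for: GCGCA and GCGC with any 1 base between them (NRF1), CCGGAAG (the core of ETS factors such as GABP), AAGATGG (YY1) and TGACGTCA (the cAMP response element), on both strands, chosen because these factors are known regulators of respiratory genes.
Cyct, chr2:76360404-76360703, minus strand: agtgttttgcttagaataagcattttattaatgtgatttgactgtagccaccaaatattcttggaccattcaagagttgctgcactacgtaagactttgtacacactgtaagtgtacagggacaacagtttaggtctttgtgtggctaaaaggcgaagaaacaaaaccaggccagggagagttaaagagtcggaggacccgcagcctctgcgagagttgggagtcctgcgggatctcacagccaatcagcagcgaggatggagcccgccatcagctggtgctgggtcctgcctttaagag
Cycs, chr6:50566520-50566819, minus strand: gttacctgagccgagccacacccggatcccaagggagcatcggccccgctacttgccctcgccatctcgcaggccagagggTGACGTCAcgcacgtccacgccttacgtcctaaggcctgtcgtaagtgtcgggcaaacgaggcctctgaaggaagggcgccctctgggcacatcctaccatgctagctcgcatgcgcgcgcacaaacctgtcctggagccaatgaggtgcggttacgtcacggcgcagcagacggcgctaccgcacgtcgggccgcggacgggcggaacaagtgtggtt
Cox6b2, chr7:4753045-4753344, minus strand: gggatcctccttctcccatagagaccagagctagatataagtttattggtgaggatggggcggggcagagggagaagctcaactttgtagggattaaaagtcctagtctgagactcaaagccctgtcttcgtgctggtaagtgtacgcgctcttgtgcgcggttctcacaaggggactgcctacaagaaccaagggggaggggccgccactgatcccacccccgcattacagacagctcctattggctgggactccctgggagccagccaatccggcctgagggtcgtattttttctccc
Cox6b1, chr7:30626065-30626364, minus strand: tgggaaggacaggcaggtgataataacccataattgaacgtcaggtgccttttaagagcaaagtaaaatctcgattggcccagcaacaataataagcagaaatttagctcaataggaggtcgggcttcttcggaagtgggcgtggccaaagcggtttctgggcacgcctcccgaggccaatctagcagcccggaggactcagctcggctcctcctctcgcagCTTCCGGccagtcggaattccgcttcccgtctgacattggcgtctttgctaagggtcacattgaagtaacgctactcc

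The window of Cycs holds the cAMP response element 1 time and that of Cox6b1 the ETS core 1 time, read here on the opposite strand, while the windows of Cyct and Cox6b2 hold none of the 4 motifs. Cox8a (chr19:7217567-7217866) holds the ETS core 2 times, and Cox7b and Cox7b2 hold none; the table has no entry for Cox8c. Of the 87 nuclear subunits, 69 have a window. NRF1 letters were found in 24.6% of them against 5.19% of 27025 genes in the table, the ETS core in 23.2% against 9.93%, YY1 in 15.9% against 7.28% and the cAMP response element in 7.25% against 2.03%. A match of letters is a description of the window, not of binding. The search asked for exact letters, so a site that differs by 1 base was missed. A window without a motif, or with no NRF1 letters such as that of Cycs, may still hold a site.

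The other pairs behaved differently from each other. Cox4i2, the lung form of subunit 4, was barely present at 1.67 and 1.77 FPKM in the busulfan libraries and 0.37 and 0.86 in the Cus-1 ones (-0.77, SE 0.27), beside the abundant Cox4i1. Cox7a1, the heart and muscle form, was at 24.4 and 36.6 FPKM against 16.7 and 21.6 (-0.63, SE 0.26), while its common form Cox7a2 was at 164 and 215 against 237 and 269 (0.43, SE 0.20), so that here the common form was the higher one with Cus-1. Ndufa4l2, a relative of Ndufa4 known to respond to low oxygen, was at 9.86 and 13.5 FPKM against 20.2 and 15.2 (0.56, SE 0.24). Ndufa4, first taken for a complex I subunit and now placed in complex IV, was at 236 and 262 against 139 and 221 (-0.50, SE 0.26). Cox6a2, the muscle form of Cox6a1, and the gene copy Cox6c2 did not reach 1 FPKM in 2 libraries and were not tested.

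On the X chromosome, which is silenced in spermatocytes during meiosis, the members were Cox7b, Ndufb11 and Ndufa1, and all 3 had negative differences (median -0.41). Ndufb11, a membrane subunit of complex I named after its values were seen, was at 99.0 and 97.8 FPKM in the busulfan libraries and 62.3 and 86.9 in the Cus-1 ones, lower in both (-0.41, SE 0.20; -0.18 without Cus-1 1). Ndufa1 was at 380 and 296 against 241 and 340 and overlapped (-0.23, SE 0.24; 0.02 without Cus-1 1). The row Ndufb11b, a symbol with no entry in the annotation used and hence no position here, had the opposite sign, at 35.9 and 54.5 FPKM in the busulfan libraries and 111 and 87.1 in the Cus-1 ones (1.13, SE 0.25, limma adjusted p = 0.152), the highest difference of all members. Whether Ndufb11b is a testis form is not known here, and the part of X silencing in these values was not tested. Pyruvate dehydrogenase, which feeds the citric acid cycle, also has an X-linked gene. This gene, Pdha1, was at 21.98 and 23.2 FPKM against 13.7 and 20.6 (-0.41, SE 0.23), and its testis form Pdha2 at 25.5 and 40.7 against 68.9 and 51.8 (0.87, SE 0.28). Both Pdha genes were named after their values were seen.

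Among assembly factors of complex I, Ndufaf3 had the highest difference (chromosome 9, 108565537 to 108567434). It was at 69.3 and 98.6 FPKM in the busulfan libraries and 174 and 156 in the Cus-1 ones, both Cus-1 libraries being higher (0.99, SE 0.22, limma adjusted p = 0.152; 0.73 without busulfan 1). The 8 Ndufaf genes together had a median of 0.03, with 3 higher, 2 lower and 3 overlapping. A further list of 39 assembly factors of all complexes, outside the naming rule, had a median of -0.13 (-0.05 without Cus-1 1, -0.22 without Cus-1 2). Of these, 4 were higher (10.3%, against 36.6% of all tested genes), 18 lower (46.2%, against 31.7%) and 17 overlapped, and 0 of the 39 passed the adjusted threshold in limma, 0 higher and 2 lower at an unadjusted p under 0.05. Uqcc2, an assembly factor of complex III, was at 186 and 313 FPKM against 336 and 344 (0.49, SE 0.28), and Cox17, a copper chaperone of complex IV, at 183 and 220 against 167 and 205 (-0.12, SE 0.19). The retrocopy Ndufb4c, identical to Ndufb4 over 390 bases, was at 309 and 331 FPKM against 261 and 248 (-0.33, SE 0.15), above Ndufb4 itself at 20.95 and 28.8 against 24.9 and 25.7, so the reads of this subunit too were divided between rows.

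In the wider pathway, 0 genes of any list passed the adjusted threshold in limma. Pyruvate dehydrogenase and the citric acid cycle had a median of -0.05 over 19 genes. Of these, 6 were higher (31.6%) and 7 lower (36.8%) without overlap, near the 36.6% and 31.7% of all tested genes. At an unadjusted p under 0.05 in limma, 2 were higher and 3 lower. The median was 0.0060 without Cus-1 1. Sucla2, a subunit of succinyl-CoA ligase, was at 176 and 200 FPKM against 245 and 226 (0.33, SE 0.16), and Pdhb, the beta subunit of pyruvate dehydrogenase, at 110 and 133 against 145 and 149 (0.28, SE 0.16). Other enzymes that pass electrons to ubiquinone had a median of -0.37 over 8 (-0.16 without Cus-1 1), with 2 higher, 5 lower and 1 overlapping. Etfb and Etfa, the electron transfer flavoprotein of fatty acid oxidation, were at 212 and 236 against 122 and 200 (-0.51, SE 0.27) and at 136 and 139 against 91.1 and 130 (-0.34, SE 0.21).

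A list of carriers of ATP, ADP and phosphate, uncoupling proteins (Ucp1, Ucp2 and Ucp3) and pores of the outer membrane, called carriers below, had 8 of 10 genes tested. Ucp1 and Ucp3 were not tested. In none of the 8 did the groups overlap, where 68.4% of all tested genes did not overlap either. Of the 8, 3 were higher and 5 lower, with a median of -0.48 (-0.28 when Cus-1 1 was left out, -0.64 when Cus-1 2 was). The pores Vdac3, at 322 and 351 FPKM against 378 and 366 (0.15, SE 0.16), and Vdac2, at 250 and 287 against 369 and 327 (0.37, SE 0.17), were higher. The third pore, Vdac1, named after its values were seen, was lower, at 132 and 103 against 60.4 and 87.9 (-0.67, SE 0.24). Ucp2, also named after its values were seen, was lower at 229 and 180 against 110 and 113 (-0.86, SE 0.18). This was the largest absolute difference of the list. The ADP/ATP carriers, which exchange the product of ATP synthase for its substrate, were named after their values were seen. The common forms Slc25a4 (117 and 94.6 against 59.9 and 71.1; -0.68, SE 0.18) and Slc25a5 (282 and 274 against 153 and 210; -0.63, SE 0.20) were lower, and the testis form Slc25a31 (16.8 and 30.8 against 40.7 and 38.6; 0.77, SE 0.30) was higher.

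Genes of mitochondrial DNA transcription, replication and RNA stability had a median of -0.06 over 26, with 6 higher, 10 lower and 10 overlapping. Single libraries left out gave -0.15 (Cus-1 2), -0.14 (busulfan 1), -0.03 (Cus-1 1) and -0.03 (busulfan 2). Tfam, which packages mitochondrial DNA and starts its transcription, was at 47.4 and 39.9 FPKM in the busulfan libraries and 97.3 and 55.5 in the Cus-1 ones (0.74, SE 0.30). Its sign was opposite to that of most mitochondrial transcripts, and Cus-1 1 stood far above Cus-1 2. Hsd17b10, a part of mitochondrial RNase P, was at 100.4 and 104 against 66.9 and 82.9 (-0.45, SE 0.17). Regulators of mitochondrial biogenesis had a median of 0.01 over 5 tested of 8, Yy1 at -0.09 (SE 0.15) and Gabpa at -0.05 (SE 0.16) both overlapping. The 78 mitochondrial ribosomal protein genes had a median of -0.01 (from -0.07 without busulfan 1 to 0.05 without Cus-1 1). Of these, 24 were higher (30.8%), 26 lower (33.3%) and 28 overlapped, near the 36.6% and 31.7% of all tested genes. Mrpl33 was at 0.01 (SE 0.15) and Mrps23 at -0.28 (SE 0.15).

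Lists of somatic cell markers had negative medians with Cus-1, beside the common forms and the mitochondrial transcripts. Of 10 Leydig cell markers, cells that make testosterone, 6 were lower and 4 overlapped (median -0.49; summed 27481 and 27054 FPKM against 13399 and 19758; median -0.23 with Cus-1 1 left out and -0.78 with Cus-1 2 left out). Of 10 macrophage markers 8 were lower and 2 overlapped (median -0.64, or -0.43 with Cus-1 1 left out; 874 and 688 against 388 and 565). The 8 peritubular and smooth muscle markers had a median of -0.28 (-0.05 without busulfan 1, -0.08 without Cus-1 1, -0.59 without busulfan 2 and -0.47 without Cus-1 2), with 1 higher, 2 lower and 5 overlapping. The 1 higher was Actg2, a smooth muscle actin named after its values were seen, at 32.0 and 25.7 FPKM against 99.7 and 41.1 (1.13, SE 0.43), the largest absolute difference of that list. Markers of skeletal muscle and brown fat, tissues rich in mitochondria, summed to 24.9 and 29.2 FPKM against 19.1 and 15.8, and 2 of the 10 reached the level for testing. These were Cidea, at 14.7 and 19.7 against 15.6 and 11.3, and Fabp4, at 7.68 and 7.29 against 1.44 and 2.47. They made up most of the sum. Every other marker of the list, with all those of skeletal muscle, was at 1.26 FPKM or less in each library. The part of these cells in the mitochondrial share was not tested.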

How the data were processed

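The authors deposited FPKM values per gene and library for 4 mouse testis libraries. Per the submitters' processing notes, the genome build was mm10. What aligned and counted the reads, the annotation, the use of strand and any filter is not given in the sources used here. Of 45582 rows, 46 were blank and 910 carried no gene name (0.641 to 0.688% of the summed FPKM); these stayed out of tests. For 115 symbols on more than 1 row the row with the highest mean was used. Libraries were grouped by source label. Replicates were numbered in accession order and pair nothing.

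The 19837 genes that reached 1 FPKM in 2 or more libraries were tested on log2(FPKM + 1) with limma 3.58.1 (R 4.3.3; two-sided, with a mean-variance trend). P-values were adjusted by Benjamini-Hochberg across these genes, threshold 0.05; the step was tested on simulated data. Members and gene lists were chosen with earlier results of these data known, and lists are described by counts and medians, with no set test. Named were all mitochondrial genes, tested genes of subunit pairs, the 3 most abundant nuclear subunits per complex, the 5 highest and 5 lowest differences, and the 2 most abundant genes of each list.

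Copies were sought with BLAST 2.17.0 among GENCODE M21 transcripts (at least 95% identity over 150 bases and 80% of the copy), where 109 of 114 members had an entry. Depth was estimated from the smallest steps of FPKM times length in genes with 1 transcript. Other pseudocounts, filters and scalings, copies summed, and each library left out were tried. FPKM of short genes is imprecise, and shifts of a few abundant genes move all other values.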

Additional observations from a re-analysis of the deposited data

How the results depend on the processing

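No paired analysis was possible because the labels give no replicate numbers shared between the groups. With 2 libraries a group and 12.2 to 13.7 M estimated fragments each, limma called 0 genes over the whole table (3576 higher and 1975 lower at an unadjusted p under 0.05), and leaving out a library gave 0 to 7 calls, the 7 without Cus-1 1 holding 0 members. The unadjusted counts ran from 1159 to 3821 higher and from 426 to 1996 lower. The median over all tested genes was -0.0056 with a filter at 5 FPKM, -0.0613 after quantile normalization and -0.0086 after centring on the median, against 0.0423. Quantile normalization put the nuclear minus mitochondrial median at 0.13, assembly factors at -0.225, the citric acid cycle at -0.145 and Cox4i2 over Cox4i1 at -1.14. It put nuclear subunits at 10 higher and 40 lower and mitochondrial genes at 6 lower, with no share of all tested genes under it given. Centring put the citric acid cycle at -0.10 and biogenesis regulators at -0.0380. A pseudocount of 0.1 put Cox4i2 over Cox4i1 at -1.59 against -0.93, and muscle and brown fat markers at -1.14 against -0.94. With no filter those markers were at -0.0703 and the carriers at -0.20. Adding the copies gave a mitochondrial share difference of -2.92 points.

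Leaving out each library in turn gave 16 to 40 nuclear subunits higher and 21 to 49 lower without overlap, and 0 to 2 mitochondrial genes higher. A group of 1 library falls outside the range of the other more easily, for any gene. The shares of all tested genes with a library left out are not given. These counts therefore have no background and do not describe the subunits. Medians ran from -0.27 to 0.0034 for complex II and from -0.0576 to 0.0060 for the citric acid cycle (positive without Cus-1 1). They ran from -0.0370 to 0.0822 for biogenesis regulators and from -0.64 to -0.28 for carriers. Marker medians ran from 0.60 to 1.36 for spermatocyte, 0.49 to 1.93 for elongating spermatid and -0.95 to -0.61 for Sertoli markers. The sign was not the same under all 3 scalings in 15 members, 2 of them mitochondrial. A group left with 1 library is assumed to vary like the other.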

Other observations

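Rows outside the naming rule gave further values of the same mitochondrial stretch. The ribosomal RNA genes of the mitochondrial genome, which the rule leaves out, were at 442 and 739 FPKM (mt-Rnr1) and 176 and 198 FPKM (mt-Rnr2) in the busulfan libraries and at 341 and 433 and at 144 and 138 in the Cus-1 libraries. All 4 values with Cus-1 were below those with busulfan of the same gene. Gm29216, a copy of part of mt-Co1 on chromosome 1 (24615706 to 24616197) identical at 482 of 483 bases, was at 144 and 436 FPKM against 109 and 398, so its libraries spread widely within each group. A row named Atp6-ps was at 6800 and 6696 FPKM against 4577 and 5696. The annotated copy of mt-Atp6 in the same block has another symbol, and the sources used here do not pair the names.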
